A study of Homo sapiens with 8 samples.

Results

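The genes examined here are 9 genes of cytosolic and endosomal nucleic acid sensing, CGAS, STING1, IFI16, TREX1, RIGI, IFIH1, TLR3, MAVS and TBK1, taken by name out of 20033 protein-coding genes. A gene was read at the 5′ end of its MANE Select transcript, the one transcript per gene chosen jointly by Ensembl and RefSeq, and a peak counted when it lay within 3 kb of that position. The peaks are regions of H3K4me3, trimethylation of histone H3 on lysine 4, a mark found at the 5′ ends of genes with active or poised transcription. They were called by chromatin immunoprecipitation and sequencing (ChIP-seq) in U2OS, a human osteosarcoma cell line that maintains its telomeres without telomerase. The 6 libraries came from 3 clones labelled WT and 3 clones labelled KO, in which ZBTB48, a zinc finger protein that binds telomeric repeats and some gene promoters, is disrupted. By the sample records both genotypes had received interferon γ (IFNγ) at 250 U/ml for 24 h, so no library is taken to show untreated cells. A figure legend in the paper gives a longer time for tracks that include H3K4me3. The 2 WT input libraries were not used here. The paper describes the samples as clones, so each library is taken as a separate clone. Among these libraries the sample titles vary only in genotype and replicate number.

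Cytosolic DNA is bound by cGAS, the product of CGAS, which then makes the cyclic dinucleotide cGAMP. STING, on the endoplasmic reticulum, binds cGAMP and recruits the kinase TBK1, which phosphorylates the transcription factor IRF3 and so leads to interferon β. RIG-I, the product of RIGI, and MDA5, the product of IFIH1, bind RNA and reach the same kinase through the mitochondrial adaptor MAVS. Cells that lengthen telomeres by recombination, U2OS among them, are known for frequent silencing of cGAS and STING. Several of these genes are themselves inducible by interferons, through promoter elements known as GAS motifs and interferon-stimulated response elements (ISRE).

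The 6 lists were not alike as lists. WT replicates 1 and 2 held wide peaks of high enrichment, with median widths of 2297 and 2353 bp and median fold enrichments of 13.4 and 14.0. WT replicate 3 and the 3 KO lists had median widths of 1275 to 1487 bp and median fold enrichments of 4.19 to 4.65. At promoters with a peak, the median length under peaks was 3274 and 3215 bp in WT replicates 1 and 2, 1955 bp in WT replicate 3 and 1655 to 1912 bp in the KO libraries. Each difference between WT and KO below is therefore given with WT replicate 3 read separately, since in width and enrichment it resembles the KO lists more than the other WT lists do. The kind of list and the genotype cannot be told apart in WT replicates 1 and 2. The lists give no read counts, so the depth behind each peak is unknown. A gene without a peak is one at which none was called, and is not shown to lack the mark. Of the osteoblast lineage markers RUNX2, COL1A1 and SPARC had a peak in all 6 libraries, and COL1A2 and TWIST1 in none. The blood markers PTPRC, CD3E and SPI1 had none, and of the epithelial markers EPCAM had one in all 6 libraries and CDH1 and KRT5 in none. A peak covered the 5′ end of ZBTB48 itself in all 6 libraries, with 3161, 3330 and 1821 bp in WT and 1855, 1555 and 1241 bp in KO, which does not test the knockout because the promoter is still there.

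The promoter letters of IFIH1, TLR3, IFI16 and MAVS are shown because they carry the interferon motifs among the sensing genes, or, for MAVS, contrast with them in CpG content. They were taken from RefSeq on GRCh38 and read 5′ to 3′ on the strand of the gene, and 7 of the 9 genes had an entry, all but CGAS and STING1. Positions count from the 5′ end, with the base before it at -1. In the first 5 lines capitals mark the GAS motif TTCNNNGAA or the ISRE core GAAANNGAA on either strand, and in the last line they mark CpG dinucleotides. The IFIH1 window of 30 bases lies at chr2:162318824-162318853 and the IFIH1 stretch of 155 bases at chr2:162318685-162318839, both on the minus strand, so the first capitals of the stretch are the end of the cluster in the window. The TLR3 windows lie at chr4:186068967-186068996 and chr4:186069095-186069124, the IFI16 stretch of 235 bases at chr1:159009657-159009891 and the MAVS stretch of 215 bases at chr20:3846584-3846798, all on the plus strand.
IFIH1 window: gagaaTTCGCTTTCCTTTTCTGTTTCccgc
IFIH1 stretch: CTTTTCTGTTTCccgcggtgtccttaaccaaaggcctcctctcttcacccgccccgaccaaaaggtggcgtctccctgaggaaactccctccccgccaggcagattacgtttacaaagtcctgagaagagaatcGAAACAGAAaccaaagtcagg
TLR3 window at -178: tctgtgaccctTTCAATGAAatccaaggat
TLR3 window at -50: tccctttgcccTTCTTGGAAtgcaccaaac
IFI16 stretch: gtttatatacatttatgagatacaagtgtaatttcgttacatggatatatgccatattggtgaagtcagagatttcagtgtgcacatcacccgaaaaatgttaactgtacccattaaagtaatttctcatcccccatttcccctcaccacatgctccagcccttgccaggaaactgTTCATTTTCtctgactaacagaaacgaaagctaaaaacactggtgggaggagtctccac
MAVS stretch: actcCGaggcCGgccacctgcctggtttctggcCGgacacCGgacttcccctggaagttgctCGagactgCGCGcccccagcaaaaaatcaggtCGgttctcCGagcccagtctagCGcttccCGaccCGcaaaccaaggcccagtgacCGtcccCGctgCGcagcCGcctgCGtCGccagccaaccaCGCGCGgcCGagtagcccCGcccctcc

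IFIH1 held 4 matches to the ISRE core in the 300 bases searched, of which 3 overlapped one another at -164, -158 and -152 on the minus strand and 1 lay at -21 on the plus strand. IFI16 held 1, at -74, and TLR3 held 1, at -3. The ISRE core was present in 6.86% of the 15343 promoters of the same length. The GAS motif, which reads the same on both strands, was found only in TLR3 among the 7, at -178 and -50, against 6.68% of all promoters. The telomeric repeat TTAGGG was present in 8.60% of promoters and in 0 of the 7. A match to letters is not evidence of binding, and no binding data were examined at these sites.

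A peak was called within 3 kb of 8 of the 9 genes in all 6 libraries, against 66.9% of all protein-coding promoters. The exception was STING1, called in 4 libraries. Promoters called in some libraries and not in others made up 5.11% of all. A peak lay over the 5′ end itself in all 6 libraries at 7 of the 9 genes, against 61.3% of promoters. The 2 others were STING1, whose 5′ end no library covered, and IFI16, covered in 5 libraries. By library, 9, 9 and 8 of the 9 genes had a peak in WT and 8, 9 and 9 in KO, so the mean number was 8.67 ± 0.577 (SD, n = 3) in each genotype.

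**Figure D1:**
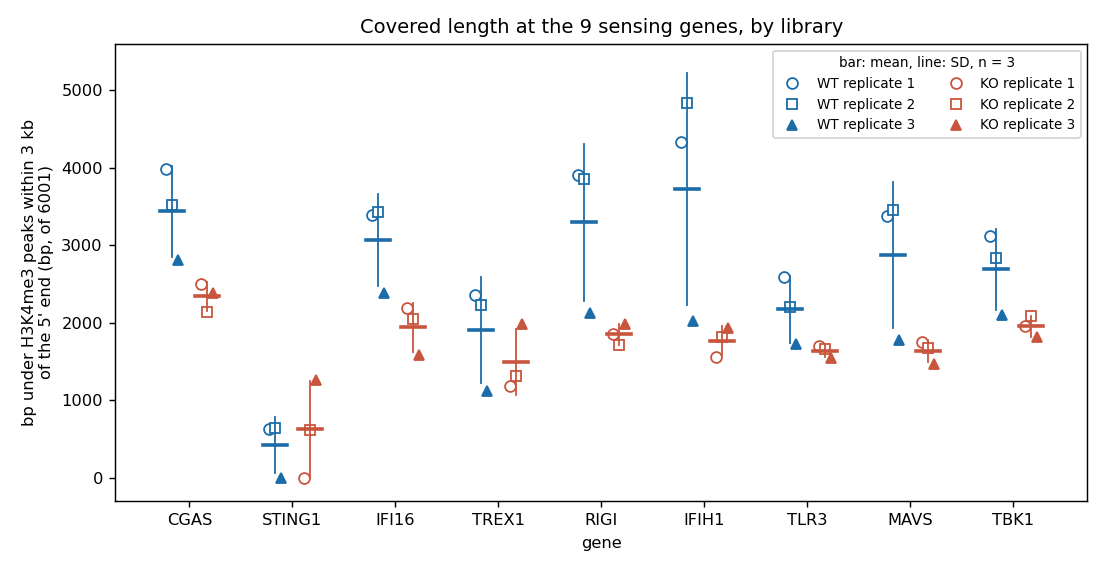
Length under H3K4me3 peaks within 3 kb of the 5′ end (vertical axis, bp) for each of the 9 genes (horizontal axis). Blue points are WT and red points KO libraries, replicates 1, 2 and 3 are circles, squares and filled triangles, bars are means and lines 1 SD (n = 3). WT replicate 3 lies close to the KO points at most genes, and STING1 is the lowest gene in both genotypes.

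CGAS, which encodes the cytosolic DNA sensor, kept a wide peak in every library. CGAS (ENSG00000164430) lies on chromosome 6, positions 73413515 to 73452297, on the minus strand. The length under the peak was 3983, 3520 and 2815 bp in WT and 2501, 2136 and 2382 bp in KO. Every WT library was above every KO library, and CGAS had the highest mean of the 9 genes in KO. The means were 3439 ± 588 and 2340 ± 186 bp (SD, n = 3), a difference of 1100 bp (two-sided exact permutation test, p = 0.1, and 0.196 adjusted over 14422 promoters). That p is the smallest that 3 against 3 can give, so no gene here can pass 0.05. With only peaks of at least 4-fold enrichment kept, the CGAS groups overlapped and the difference was 1789 bp (exact permutation test, p = 0.4). That cut removed the CGAS peak from WT replicate 3, KO replicate 1 and KO replicate 3, where its enrichment was 3.43, 3.59 and 3.67. Within the lists, its enrichment stood at percentiles 58.9, 73.0 and 26.5 in WT and 29.5, 39.7 and 27.9 in KO. By −log10 q the percentiles ran from 43.3 to 63.6. With all peaks kept, WT replicate 3 was 314 bp above the highest KO library, a lead at least equalled by 8.99% of the promoters called in all libraries. The region under the peak in all 6 libraries, positions 73450415 to 73452338, took in 41 bp before the 5′ end, the 773 bp of exon 1, of which 657 bp are coding, and 1110 bp of intron 1. On average 85.5% of the covered length was downstream of the 5′ end, a share in the 92.7th percentile of promoters. The upstream side, short as it was, measured 982, 764 and 421 bp in WT and 299, 253 and 41 bp in KO, without overlap. There WT replicate 3 was 122 bp above the highest KO library. The share of all promoters without overlap on the upstream side was not computed.

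STING1, the receptor for cGAMP, was the gene with the least mark and the only one called in some libraries and not in others. STING1 (ENSG00000184584) lies on chromosome 5, positions 139475533 to 139482935, on the minus strand, with its MANE 5′ end at 139482758. The covered length was 622, 640 and 0 bp in WT and 0, 608 and 1255 bp in KO. WT replicate 3 and KO replicate 1 held no peak, and the nearest peak lay 34822 and 34786 bp from the 5′ end. In bulk chromatin a mark in fewer cells and less mark per cell cannot be told apart. The means were 421 ± 364 and 621 ± 628 bp (SD, n = 3), and the groups overlapped (exact permutation test, p = 1, adjusted p = 1). The peaks of WT replicates 1 and 2 began 108 bp inside the gene, that of KO replicate 2 at 358 bp and that of KO replicate 3 at 24 bp, so all 4 lay wholly downstream of the MANE 5′ end. They were weak peaks, with −log10 q of 3.02, 6.40, 3.50 and 3.57, which placed them at the 11.0th, 20.4th, 12.9th and 16.7th percentiles of their own lists. The 372 bp that all 4 shared, positions 139482029 to 139482400, began past exon 1. GENCODE gives 20 distinct 5′ ends for STING1, of which none was covered in all 6 libraries and 8 were covered in none. The same set of 4 libraries was called at 3 promoters in all, 0.293% of the 1023 called in some libraries.

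IFI16, an interferon-inducible protein that binds DNA in nucleus and cytosol, had its peak almost wholly inside the gene. IFI16 (ENSG00000163565) lies on chromosome 1, positions 158999968 to 159055155, on the plus strand, with the MANE 5′ end at 159009907. The covered length was 3385, 3435 and 2382 bp in WT and 2188, 2050 and 1577 bp in KO, without overlap. Means of 3067 ± 594 and 1938 ± 320 bp (SD, n = 3) gave a difference of 1129 bp (exact permutation test, p = 0.1, adjusted p = 0.196). The groups overlapped with only peaks of at least 4-fold enrichment kept (1748 bp, exact permutation test, p = 0.4) and within 1 kb of the 5′ end (271 bp, exact permutation test, p = 0.2). The 4-fold cut removed the IFI16 peak from WT replicate 3, KO replicate 1 and KO replicate 2, where its enrichment was 3.50, 3.82 and 3.95. With all peaks within 3 kb kept, WT replicate 3 led the highest KO library by 194 bp, which 15.2% of promoters equalled or passed. The downstream share averaged 94.9%, in the 98.0th percentile of promoters, and in KO replicate 2 the peak started 32 bp past the 5′ end. The stretch shown above lies just before this edge and held 3 CpG dinucleotides in its 300-base promoter entry.

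A second IFI16 promoter was marked as well. The annotated 5′ end 9939 bp upstream of the MANE 5′ end, at 158999968, was covered in all 6 libraries, whereas those at -3945 and -912 bp were covered in none, so the 2 peaks were separate. The upstream end was picked out after its values were seen, and PYDC5 has a 5′ end within 3 kb of it. Its covered length was 3201, 3499 and 1904 bp in WT and 2300, 1996 and 1721 bp in KO. Here WT replicate 3 lay below 2 of the KO libraries, at -396 bp from the highest (difference of means 862 bp, exact permutation test, p = 0.3).

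TREX1, the exonuclease that degrades cytosolic DNA ahead of cGAS, differed from the other genes in the place of WT replicate 3. TREX1 (ENSG00000213689) lies on chromosome 3, positions 48465811 to 48467645, on the plus strand and overlaps the gene ATRIP, so the peak cannot be assigned to TREX1 alone. The covered length was 2359, 2234 and 1114 bp in WT and 1188, 1307 and 1983 bp in KO. WT replicate 3 was the lowest of the 6 libraries and KO replicate 3 was close to the wide WT libraries. The means of 1902 ± 686 and 1493 ± 429 bp (SD, n = 3) differed by 410 bp (exact permutation test, p = 0.4, adjusted p = 0.431). That difference moved with single libraries, to 181, 244 and 804 bp without WT replicates 1, 2 and 3 in turn, and to 257, 317 and 655 bp without KO replicates 1, 2 and 3. The largest change came with a 5 kb window, where it was 1357 bp (exact permutation test, p = 0.4). A WT replicate 3 below every KO library occurred at 2.13% of promoters called in all 6 libraries, and at TREX1 alone among the sensing genes called in all 6. The spread within KO came from the gene side, where the peak reached 769, 933 and 1525 bp into the gene.

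RIGI, whose product senses RNA with 5′ triphosphates, and IFIH1, whose product senses long double-stranded RNA, had the largest differences between the group means. RIGI (ENSG00000107201) lies on chromosome 9, positions 32455302 to 32526208, on the minus strand. A protein-coding readthrough gene, ENSG00000288684, also spans the RIGI peak, though it has no 5′ end within 3 kb. Its covered length was 3910, 3858 and 2125 bp in WT and 1857, 1711 and 1980 bp in KO, which gave 3298 ± 1016 against 1849 ± 135 bp (SD, n = 3; exact permutation test, p = 0.1, adjusted p = 0.196). The difference of 1448 bp was 276 bp with WT replicate 3 alone against the KO mean, and WT replicate 3 was 145 bp above the highest KO library, a lead that 20.8% of promoters equalled or passed. IFIH1 (ENSG00000115267) lies on chromosome 2, positions 162267074 to 162318684, on the minus strand. It had 4331, 4832 and 2017 bp in WT and 1557, 1818 and 1927 bp in KO. The difference of 1959 bp between 3727 ± 1502 and 1767 ± 190 bp (SD, n = 3; exact permutation test, p = 0.1, adjusted p = 0.196) was the largest of the 9, and 3.66% of promoters called in all 6 libraries had one at least as large. WT replicate 3 was 250 bp above the KO mean and 90 bp above the highest KO library, and 31.0% of promoters had such a lead or a larger one.

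The IFIH1 peak is shared with a neighbour. GCA, which encodes the calcium-binding protein grancalcin, is transcribed away from IFIH1, and the nearest of its annotated 5′ ends lies 156 bp upstream of the IFIH1 5′ end, on the other strand and inside the triple ISRE core shown above. A peak covered both in all 6 libraries, so the mark of IFIH1 and of that GCA transcript cannot be told apart. On the upstream side, toward GCA, the peak reached 1374, 1831 and 615 bp in WT and 582, 458 and 411 bp in KO, without overlap (exact permutation test, p = 0.1). There WT replicate 3 was 33 bp above the highest KO library. How many of all promoters lack overlap on that side was not computed. Into IFIH1 it measured 2957, 3001 and 1402 bp in WT and 975, 1360 and 1516 bp in KO, where WT replicate 3 fell among the KO libraries.

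By the rule for likeness, 3 promoters on other chromosomes were closest to each of the pair in the 6 covered lengths. For IFIH1 these were DCK, KRI1 and VGLL2, with absolute differences summed over the libraries of 894, 973 and 1064 bp. DCK had 4178, 4480 and 2008 bp in WT and 1823, 1831 and 1826 bp in KO. For RIGI they were CEP89 and FAAP24, which share a peak and had 493 bp each, and HOOK2 with 510 bp.

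TLR3, which encodes the endosomal receptor for double-stranded RNA, had one of the smaller differences. TLR3 (ENSG00000164342) lies on chromosome 4, positions 186068911 to 186088073, on the plus strand. The covered length was 2592, 2203 and 1727 bp in WT and 1699, 1664 and 1541 bp in KO. The groups did not overlap, but WT replicate 3 was only 28 bp above the highest KO library, and 47.5% of promoters had such a lead or a larger one. Taken by side, the groups overlapped. WT replicate 3 had 864 bp upstream against 990 bp in KO replicate 1, and 863 bp downstream against 991 bp in KO replicate 2. The means of 2174 ± 433 and 1635 ± 83.0 bp (SD, n = 3) differed by 539 bp (exact permutation test, p = 0.1, adjusted p = 0.196), or 330 bp without WT replicate 1. Of the genes called in all 6 libraries, TLR3 ranked low by −log10 q within each list, at percentiles 28.1 to 37.8. Both GAS windows shown above lie under the peak, which reached at least 551 bp upstream in every library.

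MAVS, the adaptor downstream of RIG-I and MDA5, had the most significant peaks of the group within the lists. MAVS (ENSG00000088888) lies on chromosome 20, positions 3846799 to 3876123, on the plus strand. Its −log10 q stood at percentiles 84.5 to 96.2 of the 6 lists. The covered length was 3375, 3450 and 1782 bp in WT and 1746, 1675 and 1472 bp in KO, without overlap. Means of 2869 ± 942 and 1631 ± 142 bp (SD, n = 3) differed by 1238 bp (exact permutation test, p = 0.1, adjusted p = 0.196), and WT replicate 3 was 36 bp above the highest KO library. Such a lead or a larger one was found at 45.2% of promoters.

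TBK1, the kinase on which both arms converge, had a peak with 62.0% of its length downstream of the 5′ end, near the median of all promoters at 62.6%. TBK1 (ENSG00000183735) lies on chromosome 12, positions 64452090 to 64502114, on the plus strand. It had 3124, 2837 and 2106 bp in WT and 1962, 2084 and 1816 bp in KO. The groups did not overlap, with means of 2689 ± 525 and 1954 ± 134 bp (SD, n = 3) and a difference of 735 bp (exact permutation test, p = 0.1, adjusted p = 0.196). WT replicate 3 led by 22 bp, and 49.3% of promoters led by as much or more. The long noncoding RNA ENSG00000277895 starts 781 bp downstream of the TBK1 5′ end on the opposite strand, under the peak in all 6 libraries, so the mark of the 2 cannot be told apart there.

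**Figure D2:**
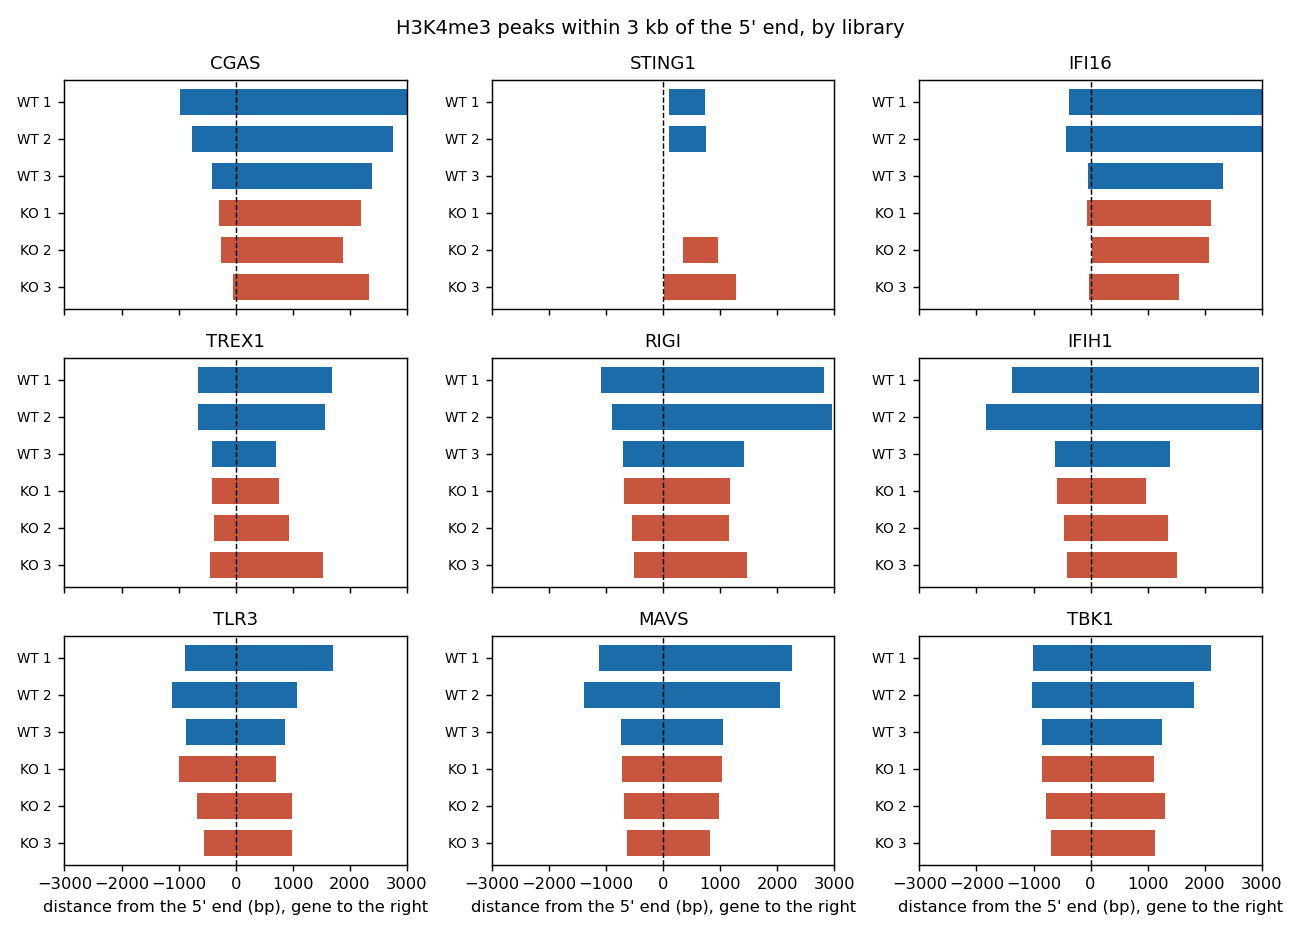
Extent of the H3K4me3 peaks in each library (rows, WT blue and KO red) against distance from the MANE 5′ end (horizontal axis, bp, gene body to the right, dashed line at the 5′ end), cut at 3 kb on either side. The CGAS and IFI16 peaks lie mostly to the right of the 5′ end, those of MAVS, TBK1 and TLR3 on both sides, and the 4 STING1 peaks lie wholly to the right.

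In order of covered length, KO libraries ran CGAS, TBK1, IFI16, RIGI, IFIH1, TLR3, MAVS, TREX1 and STING1. CGAS did not overlap TBK1 in that order, though its lowest library was under the highest of IFI16, while every later gene overlapped its neighbour. The WT order was IFIH1, CGAS, RIGI, IFI16, MAVS, TBK1, TLR3, TREX1 and STING1, in which neighbours overlapped except TREX1 and STING1. The downstream share of the peak had a median of 62.6% over all promoters called in 6 libraries, and the mean at TREX1, RIGI, IFIH1, TLR3, MAVS and TBK1 lay between 55.1% at TLR3 and 70.1% at RIGI.

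Across the 9 genes, 7 had a longer covered length in every WT library than in every KO library, and those were all but STING1 and TREX1. The same held at 54.2% of promoters called in all 6 libraries, and the reverse at 0.00746% of them, a single promoter, and at none of the 9 genes. WT replicate 3 alone was above every KO library at the same 7 genes, against 55.4% of promoters. It was at least 500 bp above at 0 of the 9 genes, against 4.84%. The median difference between WT and KO means was 1114 bp over the 8 genes called in all libraries and 998 bp over all such promoters. The median of WT replicate 3 minus the KO mean was 201 bp over the 8 genes and 164 bp over all such promoters. These counts and medians are a description of genes chosen by name, and no test was made over them.

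**Figure D3:**
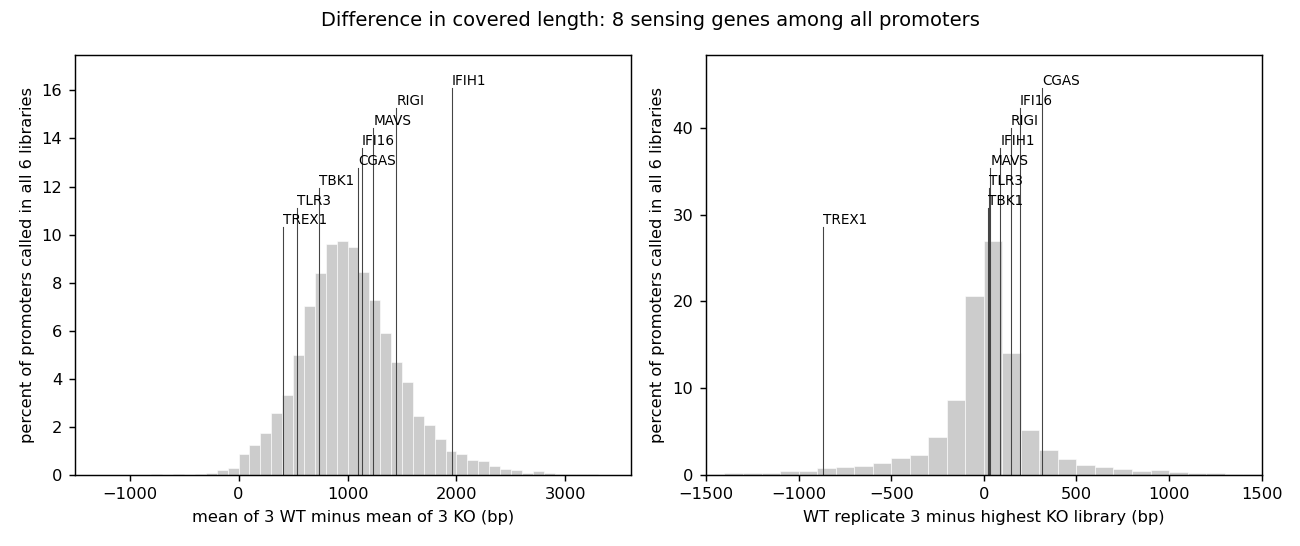
Distribution over all promoters called in 6 libraries (grey bars, percent of promoters per 100 bp) of the difference between WT and KO means (left, bp) and of WT replicate 3 minus the highest KO library (right, bp), with lines at the 8 sensing genes called in all 6. On the left IFIH1 lies farthest to the right and TREX1 farthest to the left, and on the right CGAS leads with 314 bp while TREX1 stands at -869 bp.

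When each covered length was divided by the median of its own library over promoters with a peak, the separation was no longer seen. None of the 9 genes was higher in every WT than in every KO library on that scale, against 6.14% of promoters, and TLR3 was lower in every WT library, as were 12.4% of promoters. The scaled TLR3 values were 0.792, 0.685 and 0.883 in WT and 0.889, 0.948 and 0.931 in KO. IFIH1 stayed higher in the mean in WT, at 1.29 ± 0.238 against 1.00 ± 0.177 (SD, n = 3; exact permutation test, p = 0.3). Its values were 1.32, 1.50 and 1.03 in WT and 0.814, 1.04 and 1.16 in KO. RIGI, MAVS and IFI16 also stayed higher in the mean, by 0.113, 0.0861 and 0.0185. The means of CGAS, STING1, TREX1, TLR3 and TBK1 were lower in WT. CGAS was above 1 in every library, from 1.09 to 1.44, so that its peak was longer than the median promoter's in all 6.

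The 7 promoters in the RefSeq table ranged from few to many CpG dinucleotides. CpG observed over expected, the number of CpG in the 300 bases relative to that given by their C and G content, was 0.121 at TREX1, 0.235 at IFI16, 0.418 at TLR3, 0.630 at IFIH1, 0.913 at MAVS, 1.00 at TBK1 and 1.02 at RIGI. These stood at percentiles 6.46, 14.2, 23.9, 33.1, 73.1, 87.3 and 90.0 of all promoters. Promoters called in all 6 libraries made up 11.6% of those from 0.1 to 0.2, 17.7% from 0.2 to 0.3 and 41.6% from 0.4 to 0.5, against 92.8% from 0.9 to 1 and 94.1% from 1 to 1.1. TREX1, IFI16 and TLR3 were thus called in every library although most promoters with as few CpG were not. For TREX1 the sequence entry starts from a RefSeq 5′ end 400 bp upstream of the MANE 5′ end, and no sequence of it is shown.

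**Figure D4:**
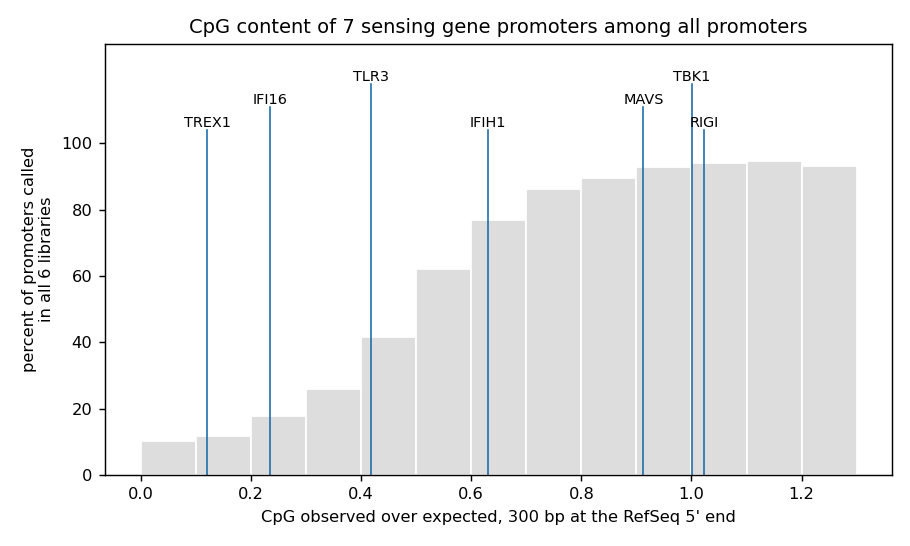
Percent of promoters called in all 6 libraries (vertical axis) by CpG observed over expected in the 300 bases at the RefSeq 5′ end (horizontal axis, bins of 0.1), with blue lines at the values of 7 sensing genes. The bars rise from 10.2% in the lowest bin to over 90% in the highest, and TREX1, IFI16 and TLR3 stand among the low bars.

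Among 43 other genes of the pathway, listed by role, 32 had a peak in all 6 libraries, against 66.9% of all promoters. Of the others, 2 had a peak in some libraries, against 5.11% of all promoters, and 9 in none. By library the count was 32, 32 and 32 in WT and 33, 33 and 33 in KO. Of the 32, 21 were longer in every WT than in every KO library, against 54.2% of promoters called in all 6, and 0 led by 500 bp in WT replicate 3, against 4.84%. The median difference between group means was 1064 bp over the 32, and that of WT replicate 3 minus the KO mean was 160 bp, against 164 bp over all such promoters. All 11 adaptors, kinases and ubiquitin ligases were called in all 6 libraries, with MYD88, TICAM1, TRAF3, TRAF6 and the NF-κB kinases among them. Of 9 nucleases, editors and negative regulators 8 were called, all but NLRC3, a negative regulator of STING. Of 9 other RNA sensors 6 were called, and DHX58, which encodes the RIG-I relative LGP2, TLR7 and TLR8 had no peak in any library. Of 7 transcription factors and interferons, IRF3, NFKB1 and RELA were called in all 6, while IRF7, IFNB1, IFNA1 and IFNL1 were called in none.

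The 2 genes called in some libraries and not in others were both other DNA sensors. Such calls made up 5.11% of all promoters, so 2 of 43 genes is not read as a trait of the group. TLR9 had no peak in any library, and 4 of the 7 were called in all 6. AIM2, the sensor of the DNA inflammasome, had 1448 bp in KO replicate 2 and 450 bp in KO replicate 3 and no peak in the other 4 libraries. Those peaks were among the weakest of their lists, with −log10 q of 2.06 and 1.47, at percentiles 4.79 and 3.66. ZBP1, a sensor of left-handed nucleic acids, had 1500 bp in KO replicate 1 alone, with −log10 q of 1.69 at percentile 2.52. Neither gene was called in any WT library or in all KO libraries, and with −log10 q of at least 3 required neither was called at all.

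**Figure D5:**
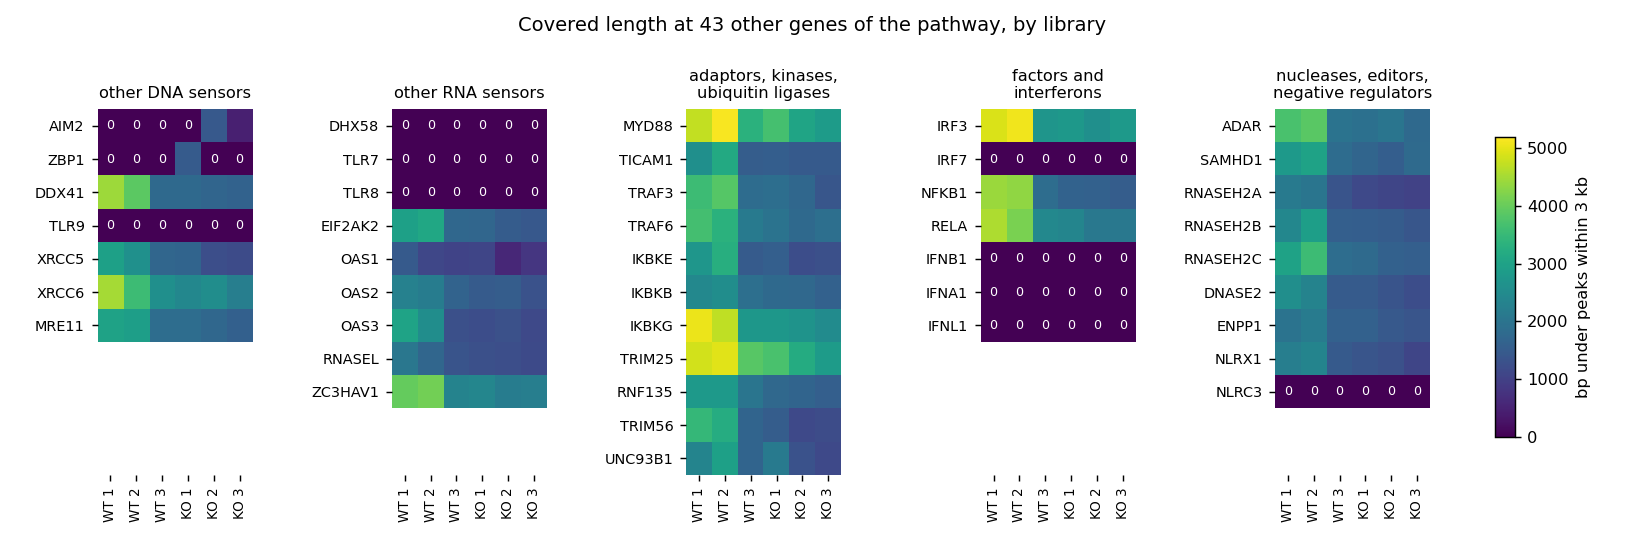
Length under H3K4me3 peaks within 3 kb of the 5′ end (colour, bp) at 43 other genes of the pathway (rows, in 5 panels by role) in the 6 libraries (columns), with 0 printed where no peak was called. WT replicates 1 and 2 are the brightest columns, 9 genes are at 0 throughout, and AIM2 and ZBP1 are called in KO libraries only.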

How the data were processed

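H3K4me3 ChIP-seq peaks of 3 WT and 3 ZBTB48 KO clones of U2OS were analysed. Per the submitters' processing notes reads were handled with Trimmomatic, Bowtie2 2.3.5.1 and MACS2 2.1.1.2 on GRCh38, and the lists are per library. Whether an input entered each call is not given in the sources used here. The deposited broadPeak columns hold, per the authors' caller, a display score, a fold enrichment (a ratio to local background) and −log10 p and −log10 q. The lowest −log10 q was 1.01. No normalization between libraries and no counts are in the lists, so the study's own count test of binding could not be run. The paper gives a range of reads per ChIP-seq sample, but not the number for each library.

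5′ ends were those of MANE Select transcripts in GENCODE 44 (GRCh38) on chromosomes 1 to 22, X and Y. The measure was the number of bp within 3000 bp of the 5′ end under peaks, and 1 bp made a call. At each of 14422 promoters covered in at least 1 library, WT and KO means were compared by a two-sided exact permutation test over 20 assignments, with Benjamini-Hochberg adjustment over all of them, in Python 3.11.15 with numpy 2.4.6. The steps were tested on simulated data, in which all lists had the same peak widths apart from noise and planted losses. Lists of unlike kind, as found here, were not simulated. Libraries are taken as separate clones of 1 line, with 1 library each, so the spread behind the p-values mixes clone and library. It includes the difference in kind of list between WT replicates 1 and 2 and the others. The 9 genes, the 43 pathway genes and the markers were chosen with earlier results of these data known. A marker of the blood list is not reported here. Genes named were the 9, ZBTB48, neighbours with a 5′ end within 3 kb, pathway genes not called in all 6 libraries or led by 500 bp in WT replicate 3, and the 3 promoters most like each of the pair with the largest difference, and members of the pathway list called in all 6 are otherwise named only as examples of their role. Same-numbered WT and KO libraries did not deviate together (correlations 0.00634, -0.0347 and 0.0795 over promoters), so numbers were not used as pairs. Motifs and CpG were read from 250 bases before to 50 after RefSeq 5′ ends. Stretches shown leave out annotated exons, apart from windows of 30 bases.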

Additional observations from a re-analysis of the deposited data

How the results depend on the processing

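The p threshold was out of reach throughout, so what can change is direction. With covered length divided by the library median, the difference turned to -0.0710 at CGAS, -0.193 at TREX1, -0.136 at TLR3 and -0.132 at TBK1, and the number of genes longer in every WT library went from 7 to 0. The cause was not tested. With WT replicate 3 alone against KO, the differences were smaller at the 7 genes that separated (475 bp at CGAS, 444 at IFI16, 276 at RIGI, 250 at IFIH1, 92.3 at TLR3, 151 at MAVS and 152 at TBK1), TREX1 turned to -379 bp and the mean difference in number of genes called went from 0 to -0.667. With fold enrichment of at least 4, STING1 turned to 213 bp, the difference in genes called to 1, and that over the 43 pathway genes from -1 to 2.33. The cause was not tested. The pathway difference was 0 with −log10 q of at least 3, -0.667 with equal numbers of peaks, with a 5 kb window or with 500 bp required, and -0.333 with the best covered 5′ end of any transcript. Leaving out each library in turn moved STING1 between -511 and 117 bp, from 10.0 bp without WT replicate 3 to 117 bp without KO replicate 3, and the number of genes called between -0.333 and 0.333. The number longer in every WT library was 7 or 8 with a library left out. It was 6 with a 1 kb window, where IFI16 did not separate. It was 5 with fold enrichment of at least 4, where CGAS and IFI16 lost the peak of WT replicate 3, among others, and no longer separated. Over the covered lengths, 136 of 144 alternative values kept their direction and 8 reversed, while their size moved. That count does not measure how stable the direction is, because many settings changed nothing. A −log10 q of at least 3, equal numbers of peaks, and joining of peaks within 1000 bp left the value at every gene unchanged. Division by the library median, which takes account of the width of each list, reversed CGAS, TREX1, TLR3 and TBK1. With the replicate block the differences are by construction the same (1959 bp at IFIH1, exact permutation p = 0.25, the smallest that 8 sign assignments allow), and it changed no call. Absence of read counts limits each statement to called peaks.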
